A study of Rattus norvegicus with 14 samples.

Results

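The expression of 10 mitochondrial biogenesis regulators was measured by RNA-seq in hippocampal neurons and hippocampal astrocytes treated with allopregnanolone (Allo), a neurosteroid that acts on GABA-A receptors. The regulators are the coactivators Ppargc1a and Ppargc1b, the nuclear transcription factors Nrf1, Gabpa and Esrra, the mitochondrial transcription factors Tfam, Tfb1m and Tfb2m, and the mitochondrial RNA and DNA polymerases Polrmt and Polg. They were taken by symbol from tables that list 18239 genes for neurons and 31791 genes for astrocytes, all 10 were found in both tables, and all 10 passed the filter of a mean of at least 10 normalized counts. Cells came from embryonic day 18 Sprague Dawley rats and were kept in Aging Model (AM) medium, which the study describes as reduced in supplement. Every library compared here had been through AM, but AM was a different medium for each cell type. For neurons it was a medium with B27 supplement reduced to 0.2%, and for astrocytes a medium with charcoal-stripped serum. Neurons on day 10 in culture spent 4 h in AM and then 16 h with vehicle (AM-Veh, 0.001% ethanol) or 100 nM Allo (AM-Allo), with 4 libraries in each group. Astrocytes spent 24 h in AM and then 24 h with vehicle or 100 nM Allo, with 3 libraries in each group. The labels do not say whether the libraries of a group came from separate cultures, so the p-values measure only the spread between these samples. In bulk libraries such as these, fewer cells of a type and less RNA per cell cannot be told apart.

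PGC-1α and PGC-1β, the products of Ppargc1a and Ppargc1b, bind no DNA themselves and raise the activity of NRF1, of GABPA (the DNA-binding subunit of NRF-2) and of the estrogen-related receptor ERRα (Esrra). These factors drive nuclear genes for the respiratory chain and the gene of TFAM, which packages mitochondrial DNA and is needed to start its transcription. With TFB2M, TFAM places the RNA polymerase POLRMT on the mitochondrial promoters, TFB1M methylates the small ribosomal RNA of the mitochondrion, and POLG is the catalytic subunit of the polymerase that copies mitochondrial DNA. In brain cells the pathway is known for setting mitochondrial content where energy demand is high.

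Sites that CREB, GABPA or NRF1 can bind were looked for in the RefSeq promoter table (build GRCr8), which holds 33469 promoters. The 250 bases before the start that it gives for each regulator were searched on both strands. This start can lie inside the annotated extent of the gene. The cyclic AMP response element TGACGTCA, bound by CREB, was found in Ppargc1a and in 1.59% of all promoters. The ETS site CCGGAAG, which GABPA can bind, was found in Tfam, Polrmt, Polg and Gabpa, 4 of the 10 regulators, and in 7.27% of all promoters. The core of the NRF1 site, GCATGCGC, was found in Tfb2m and Esrra, and in 2.20% of all promoters. Each match stands below in a window of 30 bases, 5′ to 3′ on the strand of the gene, with the matched letters in capitals, and none of the matches overlapped another motif searched.
Ppargc1a: ctgcctcggagTGACGTCAggagtttgagc
Tfam: cctgctgcagaCCGGAAGtctgggcctccc
Polrmt: ccctgtgcgctCTTCCGGcagtcgcagaac
Polg: gagggcctcacCCGGAAGtccctctgccac
Gabpa: gagggtaagtgCTTCCGGgtccctcagcta
Tfb2m: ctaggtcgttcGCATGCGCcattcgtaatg
Esrra: ccccctgttttGCATGCGCaggccgacccc
The Ppargc1a window lies at chr14:63634116-63634145 on the plus strand, and its match begins 181 bases before the start, inside the annotated extent of the gene. The Tfam window (chr20:17355306-17355335, plus strand, match at 56 bases) and the Polg window (chr1:142808941-142808970, minus strand, match at 121 bases) lie outside the gene, and the Polrmt window (chr7:10610136-10610165, plus strand, match at 49 bases) crosses its border. The windows of Gabpa (chr11:37375168-37375197, plus strand, match at 85 bases), Tfb2m (chr13:93828621-93828650, minus strand, match at 45 bases) and Esrra (chr1:213543402-213543431, minus strand, match at 115 bases) lie inside the gene extent. A match of letters is no evidence that a factor binds there, and Nrf1, Tfb1m and Ppargc1b held none of the 3 motifs in this window.

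The libraries were first checked against their labels. Estimated from the step between the lowest values, neuron libraries held 19700000 to 25100000 reads on genes and astrocyte libraries 22100000 to 28400000. Neuron libraries held the neuronal genes Map2 (23908 to 27068 normalized counts) and Rbfox3 (390.5 to 516), but also the astrocyte gene Gfap (68164 to 118740) and the oligodendrocyte lineage genes Olig1 (13027 to 15685) and Pdgfra (6138 to 7257). The neuron libraries therefore hold RNA of several cell types, and a level in them is that of the mixture. Of the microglia markers listed there, 1 of 5, Ptprc, passed the filter, and Cx3cr1, Csf1r and P2ry12 were at 0 in at least 1 library. Astrocyte libraries held Gfap at 131338 to 139943, Rbfox3 at 0 to 4.995 and Nefl at 0 to 2.94, while Map2 stood at 3268 to 4066 and Gap43 at 112 to 152. They also held the collagen genes Col1a1 at 21319 to 25406 and Col1a2 at 27815 to 32188, and the microglia gene Csf1r at 256 to 401. The other mesenchymal markers, Dcn and Lum, stood at 1.94 to 8.29 and 6.49 to 13.9. Gfap and Aqp4 had higher medians in the astrocyte libraries than in the neuron libraries, each table normalized separately. The other astrocyte markers had higher medians in the neuron libraries. These were Slc1a2 (2545 in neurons and 161 in astrocytes), Slc1a3 (60315 and 44127), Aldh1l1 (510 and 381), S100b (16544 and 4591) and Gja1 (18242.5 and 8172).

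No biogenesis regulator passed the test of AM-Allo against AM-Veh in neurons, where the group means of Ppargc1b and Esrra lay furthest below and those of Tfb1m, Polrmt and Nrf1 furthest above AM-Veh. At an unadjusted p under 0.05 by limma, 0 of the 10 regulators differed between AM-Allo and AM-Veh (872 of the 15314 genes tested, 5.69%, did). After Benjamini-Hochberg adjustment 0 of the 10 differed (4 of all genes, 0.0261%), and in 0 of the 10 were the groups free of overlap (3.95% of all genes). The regulators were higher in AM-Allo in 4 cases (Nrf1, Tfb1m, Polrmt and Polg), beside 49.2% of all genes, and lower in the other 6, with a median log2 fold change of −0.0083 against −0.0015 over all genes. All fold changes here are on the scale of log2(normalized count + 1).

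**Figure D1:**
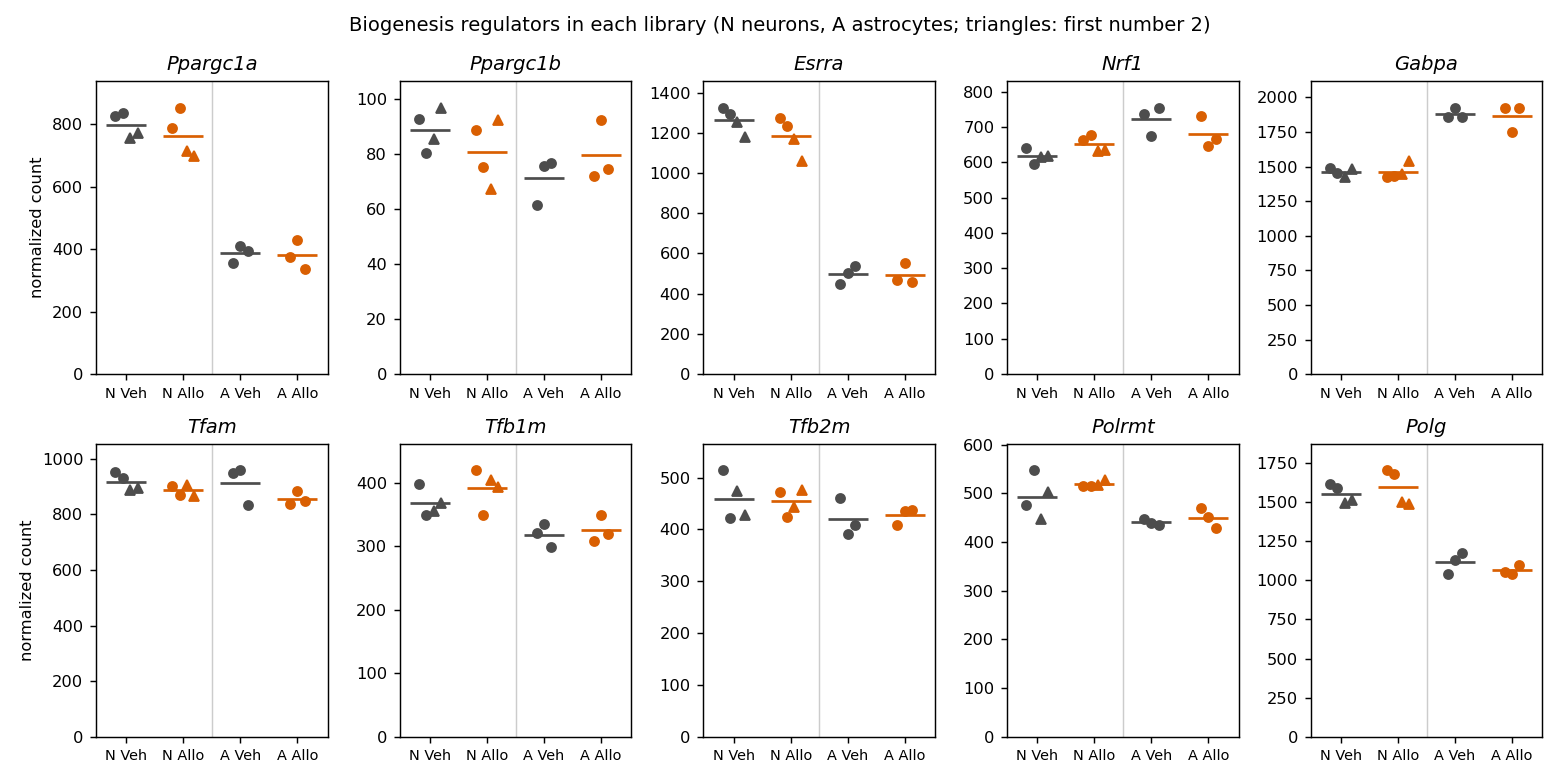
Normalized count of each of the 10 regulators in every library, on linear axes from 0, for neurons (N, 4 AM-Veh and 4 AM-Allo libraries) and astrocytes (A, 3 and 3). Points are libraries (triangles mark neuron libraries whose replicate number begins with 2) and bars are group means. In every panel the AM-Allo points overlap the AM-Veh points of the same cell type.

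Ppargc1a, the inducible coactivator of the pathway, stood in AM-Veh neurons at 826, 836, 757 and 770.4 normalized counts in libraries 1-1, 1-2, 2-1 and 2-2, and in AM-Allo neurons at 786, 853, 716 and 697. The highest library of all was AM-Allo 1-2 and the lowest AM-Allo 2-2, so that the AM-Veh values lay inside the range of AM-Allo. The means were 797 ± 39.6 and 763 ± 71.1 (SD, n = 4 each), and the log2 fold change of −0.067 (95% interval −0.22 to 0.083) had a limma adjusted p of 0.995. In astrocytes, AM-Veh libraries 1, 2 and 3 held 356, 411 and 395 and AM-Allo libraries 375, 429 and 337. Both ends of that spread were AM-Allo libraries, and the log2 fold change of −0.029 (−0.24 to 0.18) had a limma adjusted p of 0.9751.

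Ppargc1b, the second coactivator, was the least precisely measured regulator in both cell types. Its counts in AM-Veh neurons were 92.7, 80.2, 85.3 and 96.8, and in AM-Allo neurons 88.5, 75.3, 67.2 and 92.4. The AM-Allo mean was lower (80.9 ± 11.7 against 88.8 ± 7.42, SD, n = 4 each), with a log2 fold change of −0.14 whose interval ran from −0.44 to 0.15. In astrocytes, AM-Veh libraries held 61.4, 75.5 and 76.7 and AM-Allo libraries 72.1, 92.4 and 74.6. Here all 3 AM-Allo libraries stood above the AM-Veh mean, and the log2 fold change was 0.16, with an interval from −0.22 to 0.54 (limma adjusted p = 0.900).

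Nrf1, the nuclear respiratory factor, was the regulator with the smallest exact permutation p in neurons. AM-Veh neurons held 641, 596, 616 and 618 and AM-Allo neurons 662, 677, 630.4 and 635. Only AM-Veh 1-1 reached into the AM-Allo range, and all 4 AM-Allo libraries stood above the AM-Veh mean. The means were 618 ± 18.5 and 651 ± 22.02 (SD, n = 4 each), a log2 fold change of 0.075 (SE 0.046, 95% interval −0.027 to 0.18) with a limma adjusted p of 0.944 and a two-sided exact permutation p of 0.0857, where 0.0286 is the smallest that 4 against 4 allows. In astrocytes the order of the means was the opposite. AM-Veh held 737, 674 and 754 and AM-Allo 731, 645 and 666, so that 1 AM-Allo library stood above the AM-Veh mean. The astrocyte log2 fold change was −0.085 (−0.23 to 0.059) with a limma adjusted p of 0.841. The difference between the cell types was not tested, because their tables were normalized separately.

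Gabpa, the DNA-binding subunit of NRF-2, had the narrowest interval of the regulators in both cell types. AM-Veh neurons held 1488, 1456, 1424 and 1481 and AM-Allo neurons 1423, 1429.5, 1447 and 1541. The 2 group means, 1462 and 1460.3, were nearly the same, and the interval of the log2 fold change ran from −0.086 to 0.081. In astrocytes, AM-Veh held 1859, 1923 and 1861 and AM-Allo 1925, 1749 and 1920.0, with the lowest value in AM-Allo 2. That log2 fold change was −0.014, with an interval from −0.11 to 0.086.

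Esrra, the gene of ERRα, was the only regulator whose unadjusted call in neurons changed when replicate numbers entered the fit. AM-Veh neurons held 1325, 1293, 1253 and 1178 in libraries 1-1 to 2-2, and AM-Allo neurons 1271, 1234, 1170.3 and 1060.8. In each of the 4 pairs of libraries with the same number, the AM-Allo library was the lower one, as it was for Ppargc1b. For Nrf1 the AM-Allo library was the higher one in all 4 pairs. The share of all genes with all 4 pairs in the same direction was not counted, and a pairing by the whole number is not clearly shown. The log2 fold change of Esrra was −0.094 with a 95% interval of −0.23 to 0.039 and an unadjusted limma p of 0.148 (adjusted p = 0.948). The neuron libraries group by the first part of the replicate number, and less clearly by the whole number. With the whole number as a block, the interval was −0.17 to −0.014 and the unadjusted limma p 0.0249. With the first part of the number as the block, the unadjusted limma p was 0.0361. These blocks placed 1 of the 10 regulators under 0.05, beside 10.7% and 11% of all genes, so the share is near the background, and 0 of the 10 had an adjusted p under 0.05, beside 0.607% and 0.679%. The adjusted limma p of Esrra was 0.378 and 0.416 with these blocks and 0.256 to 0.999 over all settings. In astrocytes, Esrra stood at 446, 505 and 539 in AM-Veh and 467, 551 and 459 in AM-Allo, with fully mixed groups and a log2 fold change of −0.014 (−0.21 to 0.18).

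**Figure D2:**
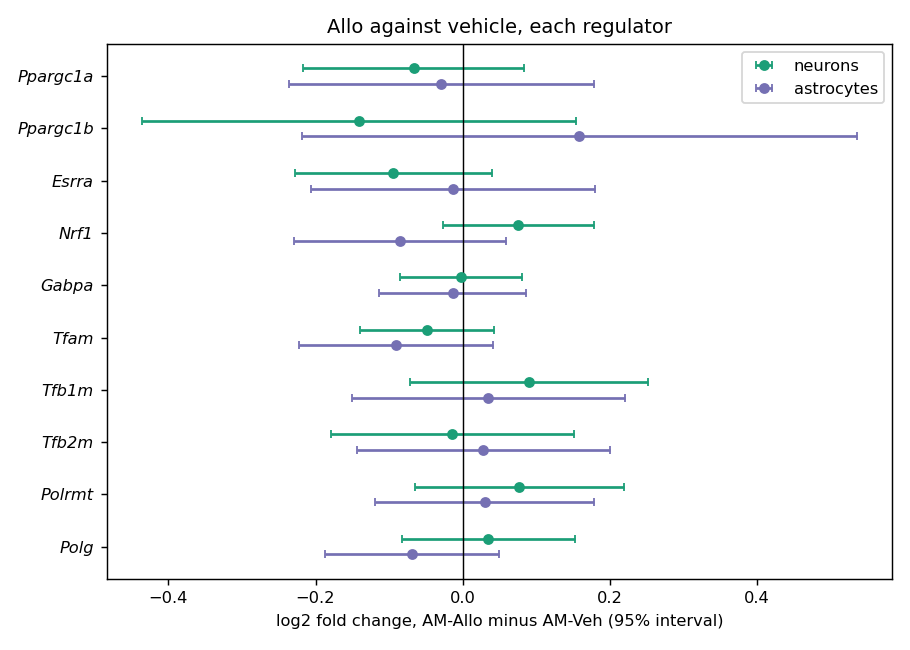
Log2 fold change of each regulator, AM-Allo minus AM-Veh, in neurons (green, 4 against 4 libraries) and astrocytes (purple, 3 against 3), with 95% intervals from limma as bars. All 20 intervals include 0, and the widest are those of Ppargc1b.

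Tfam, which coats and activates mitochondrial DNA, was lower on average in AM-Allo in both cell types, with intervals that include 0. AM-Veh neurons held 954, 931, 889.6 and 895 and AM-Allo neurons 904, 870.1, 907 and 867. None of the 4 AM-Allo libraries reached the AM-Veh mean of 918 ± 30.6 (SD, n = 4), though 2 of them stood above AM-Veh 2-1 and 2-2. The log2 fold change was −0.048 (SE 0.041, 95% interval −0.14 to 0.043, limma adjusted p = 0.983). In astrocytes, AM-Veh held 949, 959 and 836 and AM-Allo 839, 883 and 849. Here AM-Veh 3 was the lowest library of all, and the other 2 AM-Veh libraries stood above every AM-Allo library. The log2 fold change was −0.091 (SE 0.061, 95% interval −0.22 to 0.041, limma adjusted p = 0.816). Without AM-Veh 3 it was −0.15, with an unadjusted limma p of 0.0230 and an adjusted p of 0.733 (0.733 to 0.984 over all settings).

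Tfb1m, the ribosomal RNA methyltransferase, was higher on average in AM-Allo in both cell types, with intervals that include 0. AM-Veh neurons held 398, 349, 356 and 368 and AM-Allo neurons 419, 349, 405 and 394. Libraries 1-2 of both groups were the lowest, at the same level, and the log2 fold change was 0.090 (95% interval −0.072 to 0.25). Astrocytes held 320.2, 335 and 299 in AM-Veh and 309, 349 and 319.8 in AM-Allo, a log2 fold change of 0.034 (−0.15 to 0.22). Tfb2m, the transcription factor proper, ranged from 423 to 514 over the neuron libraries, both ends in AM-Veh, and from 391 to 460 over the astrocyte libraries, again both in AM-Veh. Its log2 fold changes were −0.014 (−0.18 to 0.15) and 0.028 (−0.14 to 0.20).

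Polrmt, the mitochondrial RNA polymerase, had a slightly higher mean in AM-Allo neurons, with overlapping groups. AM-Veh neurons held 476, 547, 446 and 502, whereas AM-Allo neurons held 515, 515, 516 and 527. The 4 AM-Allo libraries all stood above the AM-Veh mean of 493 ± 42.7 (SD, n = 4) but below AM-Veh 1-2. The log2 fold change was 0.077 (95% interval −0.065 to 0.22, limma adjusted p = 0.979). In astrocytes, Polrmt stood at 448, 439 and 434 in AM-Veh and 469, 451 and 429 in AM-Allo, with a log2 fold change of 0.030 (−0.12 to 0.18). Polg, the DNA polymerase, stood in AM-Veh neurons at 1613, 1592, 1494 and 1514 and in AM-Allo neurons at 1702, 1680.05, 1501 and 1490.4. The 4 highest and the 4 lowest of these values were the libraries numbered 1 and 2, not the treatments, and the log2 fold change for Allo was 0.035 (−0.082 to 0.15). In astrocytes, Polg stood at 1043, 1131 and 1177 in AM-Veh and 1050.1, 1041 and 1100.4 in AM-Allo, and all 3 AM-Allo libraries lay below the AM-Veh mean (log2 fold change −0.069, −0.19 to 0.049).

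In astrocytes as in neurons, 0 of the 10 regulators had an unadjusted limma p under 0.05 (7.01% of the 15380 genes tested did), 0 an adjusted p under 0.05 (0.0065% of all genes, 1 gene) and 0 had groups without overlap (12.5% of all genes). Ppargc1b, Tfb1m, Tfb2m and Polrmt were higher in AM-Allo, 4 of 10 beside 50.7% of all genes, and the other 6 were lower. With the replicate number as a block 0 of the 10 had an unadjusted p under 0.05 (7.17% of all genes). The median log2 fold change of the regulators was −0.014 against 0.0014 over all genes. The precision of these values was close to that of other genes, with a median SE of 0.062 in neurons (0.075 over all genes) and 0.074 in astrocytes (0.077). Over the 20 comparisons, the intervals left room for changes of 0.54 on the log2 scale at most, for Ppargc1b in astrocytes, and of 0.25 for the other 9 regulators. Marker genes of neurons in the neuron libraries had Map2 (log2 fold change 0.10) and Tubb3 (0.21) higher and Nefl (−0.23) lower at an unadjusted limma p under 0.05 and 0 of 6 after adjustment. The summed markers ranged from 47471 to 52953 in AM-Veh and from 50742 to 56045 in AM-Allo. Of 7 astrocyte markers in the neuron libraries 0 had an unadjusted p under 0.05, with sums of 189554 to 249329 in AM-Veh and 188604 to 242104 in AM-Allo. With the block by whole number, where Esrra had an unadjusted p under 0.05, 4 of the 7 did too, Gfap, S100b and Gja1 lower and Slc1a2 higher, and so did 5 of 7 oligodendrocyte lineage markers and 2 of 4 mesenchymal markers, all higher. In the astrocyte libraries the astrocyte genes Slc1a2 (−0.36) and S100b (−0.088), the microglia gene Cx3cr1 (−0.58) and the neuronal gene Map2 (−0.13) were lower at an unadjusted p under 0.05 and not after adjustment, with summed astrocyte markers of 221276 to 234470 in AM-Veh and 220444 to 225315 in AM-Allo. The part of such shifts in the regulators' values was not tested.

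The neuron libraries are numbered 1-1, 1-2, 2-1 and 2-2 in each group. Like many other genes, 3 of the 10 regulators varied with the first part of that number, whose meaning the labels do not give. Fitted with treatment as a covariate, 3 of the 10 regulators were lower in the libraries numbered 2 than in those numbered 1 at an adjusted limma p under 0.05 (17.2% of all genes were called). The same 3 had an unadjusted p under 0.05 (29.3% of all genes, 14.1% of all genes being lower), and in 2 of the 10 the sets did not overlap (19.6% of all genes). The shares at an unadjusted p and without overlap are near those of all genes. Ppargc1a stood at 825 ± 28.3 (SD, n = 4) in the libraries numbered 1 and 735 ± 34.3 (SD, n = 4) in those numbered 2. Its log2 fold change was −0.17 (SE 0.044, limma adjusted p = 0.0157), and every library numbered 1 stood above every library numbered 2. Polg stood at 1647 ± 52.7 and 1499.9 ± 10.3 (SD, n = 4 each), a log2 fold change of −0.13 (SE 0.032, limma adjusted p = 0.00916), also without overlap. Esrra stood at 1281 ± 38.3 and 1165 ± 79.1 (SD, n = 4 each), with overlapping sets and a log2 fold change of −0.14 (SE 0.041, limma adjusted p = 0.0295). For the other 7 regulators the adjusted p was not under 0.05 in any setting tried, and the log2 fold changes ran from −0.046 (Polrmt) to 0.023 (Gabpa). Polg kept its call under all 17 alternative settings, Ppargc1a under 15 (its adjusted limma p was 0.0690 with AM-Allo 1-2 left out and 0.0572 with AM-Allo 2-2 left out), and Esrra under 11. The adjusted p of Esrra was 0.0551 to 0.115 without AM-Allo 1-1, 1-2 or 2-2 or AM-Veh 1-1 or 2-2, and 0.101 without a variance trend.

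**Figure D3:**
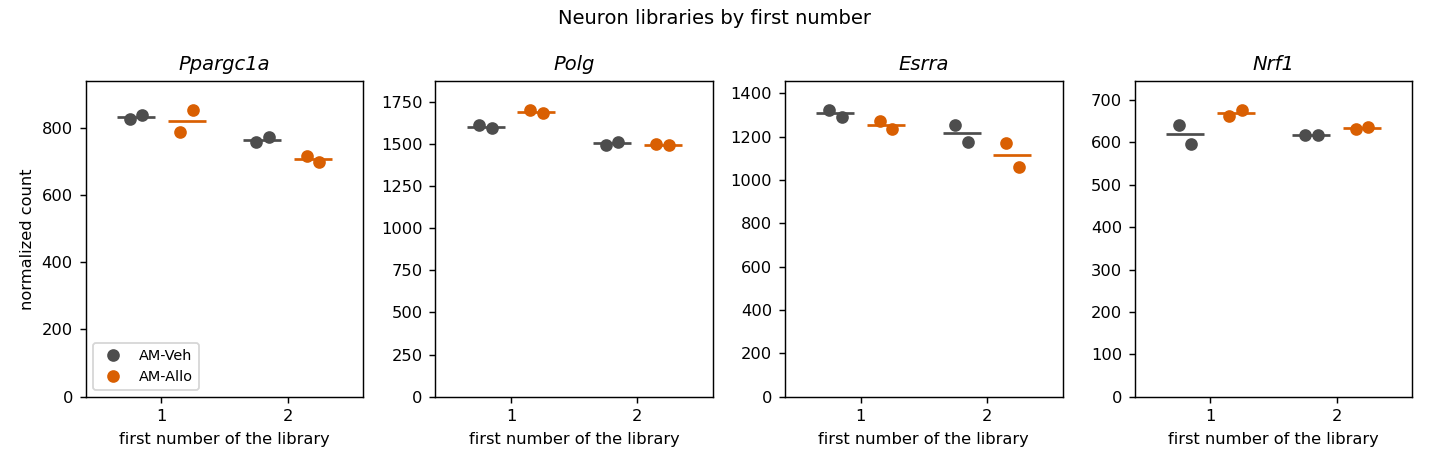
Normalized counts of Ppargc1a, Polg, Esrra and Nrf1 in the 8 neuron libraries, split by the first part of the replicate number (x axis) and treatment (grey AM-Veh, orange AM-Allo), on linear axes from 0. Points are libraries and bars are means of 2 libraries. Ppargc1a and Polg are lower in all libraries numbered 2 than in any numbered 1, and Nrf1 is not.

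Cell type markers moved with the same number. At an adjusted limma p under 0.05, 5 of 7 astrocyte markers differed, among them Gfap (log2 fold change 0.62) and Aqp4 (0.17) higher and Gja1 (−0.11) lower in the libraries numbered 2. The summed astrocyte markers ranged from 188604 to 200619 in the libraries numbered 1 and from 227074 to 249329 in those numbered 2. Of 7 oligodendrocyte lineage markers, 6 differed, with the myelin gene Mbp (−0.96) lower and Sox10 (0.53) higher, and their sum ranged from 42116 to 45138 and from 38202 to 38927. Of 4 mesenchymal markers, 3 were lower, and their sum ranged from 567 to 1767 and from 223 to 328, whereas of 6 neuron markers only Syt1 (0.22) differed. The part of these shifts in the levels of Ppargc1a, Polg and Esrra was not tested.

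Within each number the Allo comparison rests on 2 libraries against 2. The log2 fold change of Esrra was −0.064 within number 1 and −0.12 within number 2, and that of Nrf1 was 0.11 and 0.036, so both kept their direction. Ppargc1a (−0.021 and −0.11), Ppargc1b (−0.078 and −0.20), Tfam (−0.088 and −0.0091), Tfb1m (0.038 and 0.14) and Polrmt (0.014 and 0.14) also kept theirs. Polg (0.078 and −0.0077), Gabpa (−0.045 and 0.041) and Tfb2m (−0.058 and 0.030) changed sign. Tested as an interaction of treatment with first number, none of these differences passed, with adjusted limma p-values of 0.717 to 0.932 for the 10 regulators (12 of the 15314 genes passed, and 1459 at an unadjusted p under 0.05).

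The genes that act with the regulators were described by lists, each against the same background of genes at an unadjusted limma p under 0.05 (3.21% higher and 2.48% lower in neurons, 3.72% higher and 3.29% lower in astrocytes). No gene of these lists had an adjusted p under 0.05 in either cell type. Of 23 coregulators and upstream regulators tested in neurons (the kinase genes Prkaa1 and Prkaa2 of AMPK, Creb1, the nuclear receptor gene Ppara and others), 11 were higher and 12 lower in AM-Allo, 0 of them at an unadjusted limma p under 0.05. In astrocytes, 7 were higher and 13 lower, and 1 of the 20 tested, the mitochondrial deacetylase gene Sirt3, was lower at an unadjusted limma p under 0.05. Sirt3 stood at 690 ± 35.9 in AM-Veh and 627 ± 26.7 in AM-Allo (SD, n = 3 each, log2 fold change −0.14, limma adjusted p = 0.711), and its unadjusted p was above 0.05 in 9 of the settings tried.

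Of 13 genes that copy and maintain mitochondrial DNA, 4 were higher and 9 lower in AM-Allo in each cell type. In neurons 0 of the 13 had an unadjusted limma p under 0.05. In astrocytes, Ssbp1, the single-strand binding protein of the mitochondrial replisome, was lower at an unadjusted limma p under 0.05 (407 ± 15.9 and 357 ± 25.0, SD, n = 3 each, limma adjusted p = 0.684). The call of Ssbp1 was lost without AM-Allo 1, AM-Veh 2 or AM-Veh 3. Exog, an exonuclease named here after its value was seen, was higher at an unadjusted limma p under 0.05 with overlapping groups (log2 fold change 0.25).

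Of 15 genes for mitochondrial transcription and RNA processing, 4 were higher and 11 lower in AM-Allo in each cell type. Tefm, the elongation factor that works with POLRMT, was the 1 gene of this list under an unadjusted p of 0.05 in neurons. It stood at 227 ± 7.93 in AM-Veh and 189 ± 20.4 in AM-Allo (SD, n = 4 each), a log2 fold change of −0.27 (SE 0.090, limma adjusted p = 0.694), without overlap. The call of Tefm was kept in every setting tried, at unadjusted limma p-values up to 0.0353. In astrocytes the 1 gene was Slirp, which stabilizes mitochondrial messenger RNA, at 240.4 ± 7.49 and 286 ± 28.5 (SD, n = 3 each). Its log2 fold change was 0.24 (limma adjusted p = 0.668), and the call was lost without AM-Allo 2, AM-Allo 3 or AM-Veh 3.

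The 13 protein-coding genes of mitochondrial DNA, which TFAM, TFB2M and POLRMT transcribe, were mostly lower in AM-Allo, with 11 of 13 lower in each cell type. In neurons, 0 of the 13 had an unadjusted limma p under 0.05, and the median log2 fold change was −0.031. With the replicate block, 2 (by the whole number, Mt-nd4 and Mt-nd6) or 3 (by its first part, with Mt-nd5) were lower at an unadjusted p under 0.05. In astrocytes, 9 of the 13 were lower at an unadjusted limma p under 0.05 and 0 after adjustment, with a median log2 fold change of −0.10. Mt-nd4l, a subunit of complex I, stood at 7446 ± 363 in AM-Veh and 6262 ± 545 in AM-Allo astrocytes (SD, n = 3 each), a log2 fold change of −0.25 (limma adjusted p = 0.269). Mt-nd3, another, stood at 11840 ± 944 and 9401 ± 1462 (SD, n = 3 each), a log2 fold change of −0.34 (limma adjusted p = 0.394), and its unadjusted call was lost in the robust fit. The count of 9 became 3 without AM-Veh 1, 4 without AM-Allo 1, 5 without AM-Allo 2 (where 1 other gene was higher) and 2 without a variance trend. The share of all counts on mitochondrially encoded genes was 3.73% ± 0.170 for AM-Veh astrocytes and 3.47% ± 0.109 for AM-Allo astrocytes (SD, n = 3 each), without overlap, at an exact permutation p of 0.100, the smallest that 3 against 3 allows. In neurons the shares were 5.84% ± 0.179 and 5.75% ± 0.160 (SD, n = 4 each, exact permutation p = 0.457), and they overlapped. The libraries were poly(A)-selected, so these shares are of the poly(A) RNA captured.

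**Figure D4:**
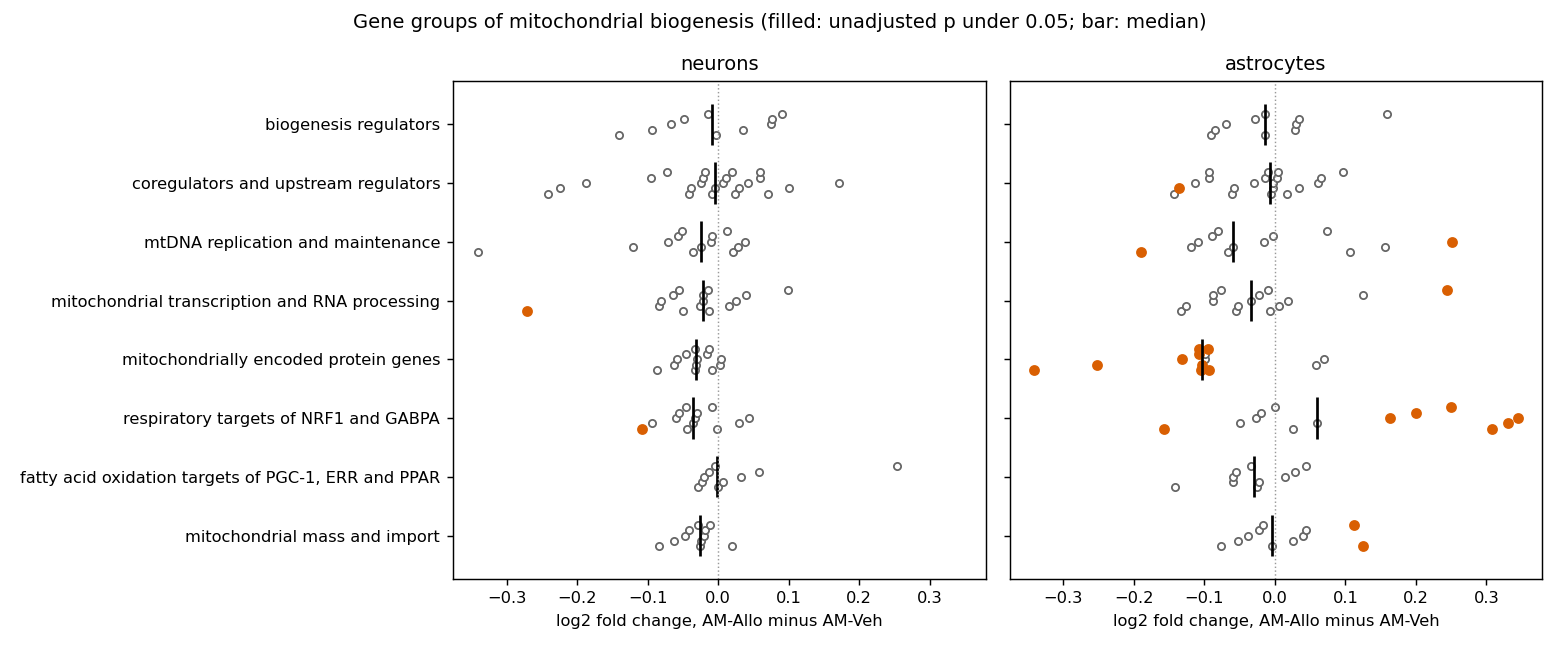
Log2 fold change, AM-Allo minus AM-Veh, of every tested gene of the 10 regulators and of 7 lists of genes that act with them, in neurons (left) and astrocytes (right). Each circle is a gene, filled circles have an unadjusted limma p under 0.05 (0 of the genes shown have an adjusted p under 0.05), and bars are medians. The regulators lie around 0 in both, and in astrocytes the mitochondrially encoded genes lie mostly to the left. Of the 13 respiratory targets in astrocytes, 9 lie to the right, 6 of them filled, and 4 to the left, of which Cycs is filled.

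Of 13 genes known as targets of NRF1 and GABPA (cytochrome c, Cycs, nuclear subunits of cytochrome c oxidase, Alas1 of heme synthesis and the import receptor Tomm20), 2 were higher, Cox4i1 and Alas1, and 11 lower in AM-Allo neurons. Cox7c stood at 3166 ± 79.1 in AM-Veh and 2938 ± 92.6 in AM-Allo neurons (SD, n = 4 each), without overlap, a log2 fold change of −0.11 (limma adjusted p = 0.652), and it was the only 1 of the 13 called. With the replicate block, 2 or 3 of the 13 were lower at an unadjusted p under 0.05 (Cox7c and Cycs, and Cox6c with the first part of the number). In astrocytes 9 were higher and 4 lower, and the list's median log2 fold change was 0.059. At an unadjusted limma p under 0.05, 6 were higher (Cox6b1, Cox6c, Cox7a2, Cox7b, Cox7c and Cox8a), and Cycs was lower. All of these 6 except Cox7c were also picked by the study on these libraries, so this count is not independent evidence of a direction. Cox8a stood at 1935 ± 124 in AM-Veh and 2467 ± 288 in AM-Allo astrocytes (SD, n = 3 each), a log2 fold change of 0.35 (SE 0.073, limma adjusted p = 0.241). Cox6b1 stood at 1080.1 ± 21.7 and 1342 ± 143 (SD, n = 3 each), a log2 fold change of 0.31 (SE 0.067, limma adjusted p = 0.269). Without AM-Allo 1 the adjusted limma p of Cox8a was 0.00286 and that of Cox6b1 0.00416 (0.00286 to 0.7997 and 0.00416 to 0.779 over all settings), and 3 of the 13 were higher at an unadjusted p under 0.05 without a variance trend. Cycs stood at 907 ± 30.8 and 814 ± 43.9 (SD, n = 3 each, limma adjusted p = 0.611), and its unadjusted call was one that was lost without AM-Allo 3 or AM-Veh 3.

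The study also picked 13 oxidative phosphorylation genes on these libraries, 5 of which (Cox6b1, Cox6c, Cox7a2, Cox7b and Cox8a) are among the respiratory targets. In astrocytes all 13 were higher in AM-Allo at an unadjusted limma p under 0.05 and 0 after adjustment, with a median log2 fold change of 0.24, and since they were chosen on these samples the count is not independent evidence of a direction. It was 9 without AM-Allo 2, AM-Allo 3, AM-Veh 1 or AM-Veh 3 and 5 without a variance trend. In neurons, 12 of these 13 were lower in AM-Allo and 0 had an unadjusted p under 0.05 (1 or 2 with a replicate block).

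Fatty acid oxidation genes that PGC-1, ERR and PPAR factors are known to drive showed no calls, with 5 of 10 higher in AM-Allo neurons and 3 of 10 higher in AM-Allo astrocytes. Between the neuron libraries numbered 2 and 1, however, 6 of these 10 differed at an adjusted limma p under 0.05, beside 17.2% of all genes. Cpt1a, Acadvl, Hadha and Slc25a20 were lower, Acadl (log2 fold change 0.11) and Hadhb (0.20) were higher, and the median log2 fold change of the 10 was −0.093. Of 11 genes of mitochondrial mass and import, 1 was higher and 10 lower in AM-Allo neurons, 0 of them at an unadjusted p under 0.05 (1, Hspd1, with the block by first part). In astrocytes, 5 were higher and 6 lower, and 2 were higher at an unadjusted limma p under 0.05. These were Vdac1, the main channel of the outer membrane (5429 ± 123 and 5870.3 ± 188, SD, n = 3 each, limma adjusted p = 0.524), and Tomm40, the import pore (866 ± 24.9 and 944 ± 26.1, SD, n = 3 each, limma adjusted p = 0.684). The unadjusted limma p of Vdac1 was 0.0501 without a variance trend, and Tomm40 lost its call without AM-Allo 2, AM-Allo 3, AM-Veh 2 or AM-Veh 3.

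Set side by side as CPM, the normalized counts scaled to the total of the library, several regulators had levels without overlap between neuron and astrocyte libraries. The tables were normalized separately, no test was made, and the share of all genes without overlap was not counted. The medium and the hours in AM and in treatment also differed between the cell types. The neuron libraries hold RNA of several cell types. The part of these differences in the levels was not tested. The median of Esrra was 56.1 in neurons and 20.3 in astrocytes (a ratio of 2.76), that of Ppargc1a 35.1 and 16.1 (2.17) and that of Polg 70.1 and 45.0 (1.56). These were the highest ratios, and in all 3 genes no astrocyte library reached a neuron library. Tfb1m (17.0 and 13.4) and Polrmt (23.3 and 18.6) were also without overlap, and Gabpa was the 1 regulator with the higher level in astrocytes and no overlap (65.7 and 79.1). The ranges of Nrf1, Tfam, Tfb2m and Ppargc1b overlapped.

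For each cell type, the genes whose levels followed a regulator most closely were found by Pearson correlation of log2 values and are given as a description, since the neuron libraries share the difference between numbers 1 and 2. For Ppargc1a they included Ipo9 (r = 0.983) and Zfp157 (0.9795) over the 8 neuron libraries and Mtfr1l (0.994), Mepce (0.991) and Dpm2 (0.987) over the 6 astrocyte libraries. For Nrf1 they were Drp2 (0.982), Pdia4 (0.964) and Rab33a (0.952) in neurons and Cables2 (0.996), Plk4 (0.985) and Rbm7 (0.985) in astrocytes. For Tfam they were an unnamed gene listed by its identifier alone (0.962), Men1 (0.944) and Hcn4 (0.943) in neurons and Letm2 (0.992), Zfp281 (0.983) and LOC103690054 (0.982) in astrocytes. No gene was among the 3 most alike in both cell types.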

How the data were processed

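RNA-seq values of 8 neuron and 6 astrocyte libraries were put into groups from the labels, by cell, treatment and replicate number. The authors made stranded poly(A) libraries with paired reads of 150 bases, ran Salmon 0.14 on rat transcripts (Ensembl release 95), turned its output into gene counts by tximport and normalized these with DESeq2 1.18.1. The deposited tables hold this signal, a normalized count per gene symbol, in 1 table per cell type, and the authors' variance-stabilized values (VST), on a log2-like scale that compresses the changes of genes with low counts. Levels were not divided by gene length, so they are not compared between genes.

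Normalized counts were tested as log2(value + 1) over genes with a mean of at least 10, with limma 3.58.1 (eBayes with trend) in R 4.3.3, in each cell type alone, and adjusted by Benjamini-Hochberg over all genes tested. The test was tried on simulated data. Single values had two-sided exact permutation tests (scipy 1.17.1). Whole reads could not be recovered, since 62.5% to 92.1% of low values were whole multiples of 1 step within 0.15 reads. The precision of a value is therefore that of its spread between libraries. The lowest shares of whole multiples were those of AM-Allo astrocyte libraries 2 (62.5%) and 3 (63.4%). Every other library, AM-Allo astrocyte library 1 (91.4%) included, had 77.9% or more. The part of this in the astrocyte fold changes was not tested.

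The regulators, the gene lists and the tests were chosen with earlier results of these data known. Named genes are the 10 regulators, at most 2 genes per list, direction and cell type with the lowest unadjusted p among those under 0.05 without overlap, the 3 genes most alike to Ppargc1a, Nrf1 and Tfam (1 of them is not reported here), and defining markers. After group means were removed, AM-Veh and AM-Allo neuron libraries with the same number correlated at 0.296, 0.229, 0.265 and 0.273 over genes. Those sharing only the first part of the number correlated at 0.185, 0.236, 0.211 and 0.196, and those with another first part at −0.32 to −0.15. The first part thus groups the neuron libraries, while a pairing by the whole number is not clearly shown. Astrocyte libraries with the same number correlated at 0.024, −0.0070 and 0.012, so these numbers show no pairing. Other pseudocounts, filters, scalings, fits, blocks and left-out libraries were tried. The neuron VST values have equal means in the libraries numbered 1 and 2 for every gene (largest difference 7.5e-09), so they were not used for that comparison. Promoter sequences are those of RefSeq, build GRCr8, another build than that of the reads, and all 10 regulators had 1.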

Additional observations from a re-analysis of the deposited data

Results flagged for a closer look

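Of the 22 groups of 4 libraries checked for a library far from the others, 1 held such a library, where chance gives about 5%. Polrmt stood at 526.78 normalized counts in AM-Allo neuron library 2-2, whereas the other 3 AM-Allo neuron libraries held 514.9 to 515.9, and the gap was 0.91 of the group's range. The value lay inside the range of the AM-Veh neurons (446 to 547), and without that library the log2 fold change of Polrmt kept its direction.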

How the results depend on the processing

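Neuron libraries group by the first part of the replicate number, and a replicate block moved the counts. In neurons, 4 genes were called at an adjusted limma p with no block, 104 with the replicate block by first number, 93 with that by whole number, 158 with VST values, 105 with VST values and the block, and 0 without a variance trend (904 unadjusted). Leaving out each library gave 0 to 4 (0 without AM-Veh 1-1, 1-2 or 2-1, where 966, 797 and 678 genes had an unadjusted p under 0.05). The unadjusted count was 872, 1684 and 1634 with the blocks, and 2204 and 1694 with VST values without and with the block. Of the regulators, 1 (Esrra) had an unadjusted p under 0.05 with either block and with VST values with or without it, against 0, and the block changed no other regulator's call. The VST values have equal means in the libraries numbered 1 and 2, so their fit without a block is not separate from the block. Its counts of 158 and 2204 take no account of that removed difference. In astrocytes, 1 gene was called, 0 at a minimum mean of 50 or without a trend (914 and 994 unadjusted), 4 in the robust fit and 17 with a replicate block, which there joins libraries that share only a number. Leaving out each astrocyte library gave 1 to 72 genes (72 without AM-Allo 1) and 0 to 1 regulators (Tfam without AM-Veh 3). For the first number, 2636 genes became 1722 without a trend, the 3 regulators became 1 to 3 as libraries were left out, and total-count scaling moved the share of higher calls from 52.0% to 41.2%.

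Fold changes near 0 changed sign. That of Gabpa in neurons was 5.99e-06 under upper-quartile scaling. For the first number, Ppargc1b was −0.0037 under quantile normalization and −0.0066 under total-count scaling, and Tfb1m −0.0024, −0.0088 and, under upper-quartile scaling, −0.0013. With each library left out in turn, the log2 fold change ran in neurons from −0.053 to 0.041 for Tfb2m and −0.029 to 0.0097 for Gabpa. In astrocytes it ran from −0.12 to 0.054 for Ppargc1a, −0.015 to 0.073 for Tfb1m, −0.022 to 0.096 for Tfb2m, −0.00050 to 0.063 for Polrmt, −0.038 to 0.032 for Gabpa and −0.097 to 0.048 for Esrra. For the first number it ran from −0.066 to 0.12 for Ppargc1b, −0.054 to 0.058 for Tfb1m, −0.054 to 0.058 for Tfb2m, −0.073 to 0.0069 for Polrmt and −0.0034 to 0.043 for Gabpa. Of the alternatives tried for the regulators, 197 in neurons, 157 in astrocytes and 151 for the first number kept direction and side of the threshold. The cause of these changes was not tested. With 3 or 4 libraries a group, the values do not tell apart the changes inside a printed interval. Shares of mitochondrial counts kept their direction in every setting.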

Other observations

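The median absolute log2 difference of the 10 regulators between the neuron libraries numbered 2 and 1 was 0.041, against 0.088 over all genes tested, although Ppargc1a, Polg and Esrra were called in that comparison. For AM-Allo against AM-Veh it was 0.071 in neurons, against 0.054 over all genes, and 0.032 in astrocytes, against 0.062.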
